A study of Mus musculus with 5 samples.

Results

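Lipid droplet storage and lipolysis genes were read out as 10 genes selected by symbol: the perilipins Plin2 and Plin3, the lipases Pnpla2, Lipe and Mgll, the acyltransferases Dgat1 and Dgat2, the CIDE genes Cidea and Cideb, and Hilpda. All 10 were found among the 56748 genes of the table, once each, and all 10 were among the 17724 genes that passed the filter on low counts. RNA came from brain cells positive for CD11b, an integrin chain carried by microglia and other cells of myeloid origin, with the cerebellum taken away, of mice aged 7 months. The control group was 2 libraries of 5xFAD mice (replicates 1 and 3), a line whose transgenes carry familial Alzheimer mutations and which forms amyloid plaques. The other group was 3 libraries of 5xFAD/Cd5l tg/wt mice (replicates 1, 2 and 3), which carry the same amyloid transgenes. In addition these mice carry mouse Cd5l driven by the human PDGF-B promoter. They are called Cd5l-transgenic below, and wild-type mice were not analysed here. The labels give the genotype of both groups and no measure of amyloid. Titles give each library its own mouse number and name CD11b-positive cells, whereas the library descriptions speak of brain tissue.

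A lipid droplet is a core of triglyceride and sterol ester inside a phospholipid layer that is coated with proteins. DGAT enzymes make the triglyceride, perilipins and CIDE proteins coat, shield and enlarge the droplet, and lipolysis runs in sequence from triglyceride to diglyceride to monoglyceride to free fatty acid. Microglia accumulate droplets with age, with inflammation and near amyloid plaques, and CD5L, a protein secreted by macrophages, is reported to drive lipolysis in adipocytes. The comparison asked how the transcripts of this machinery stood in CD11b-positive cells of 5xFAD mice with and without forced Cd5l.

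Promoter sequence from RefSeq (GRCm38.p6, a different build from that of the counts) was at hand for 7 of the 10 genes. Shown here are the starts of the coat protein Plin2 and the lipases Lipe and Mgll, since these were the members whose window from 250 bases before to 50 bases after a start held CACGTG, the palindromic E-box bound by basic helix-loop-helix leucine zipper factors such as USF, ChREBP and TFEB. Each is printed 5′ to 3′ in the direction of the gene from base -200 to base 10 around the start, with the E-box in capitals.
Plin2, chr4:86670050-86670259, minus strand: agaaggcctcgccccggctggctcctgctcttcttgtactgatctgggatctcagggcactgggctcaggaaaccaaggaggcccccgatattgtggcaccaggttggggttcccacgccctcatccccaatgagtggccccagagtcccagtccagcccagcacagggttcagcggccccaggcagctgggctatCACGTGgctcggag
Lipe, chr7:25395978-25396187, minus strand: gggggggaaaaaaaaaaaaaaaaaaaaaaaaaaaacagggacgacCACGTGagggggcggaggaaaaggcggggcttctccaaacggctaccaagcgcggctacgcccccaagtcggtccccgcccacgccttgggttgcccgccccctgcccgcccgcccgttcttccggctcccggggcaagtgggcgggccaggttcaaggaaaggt
Mgll, chr6:88724212-88724421, plus strand: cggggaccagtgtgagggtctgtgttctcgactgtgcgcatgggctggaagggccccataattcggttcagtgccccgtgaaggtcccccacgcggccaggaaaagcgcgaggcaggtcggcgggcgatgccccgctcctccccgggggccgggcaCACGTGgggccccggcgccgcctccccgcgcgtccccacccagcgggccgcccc
The E-box began at base -4 in Plin2, at base -155 in Lipe and at base -44 in Mgll. Of all 32851 RefSeq start windows of this length, 7.15% held CACGTG. This share is per window and not per gene, and the 7 genes had 10 windows between them. For Hilpda, whose name records its induction by hypoxia, the window of the downstream start held ACGTG at base -43, a core to which hypoxia-inducible factors bind. That core, in capitals, lies in this stretch of 30 bases.
Hilpda, chr6:29272569-29272598, plus strand: tggatggccagcggACGTGccccagggcga
On either strand ACGTG was found in 19.6% of windows, the other core, GCGTG, in 32.4%, and every E-box above also contains ACGTG. Another start window of Mgll held ACGTG at base -158, outside an E-box. GCGTG occurred in windows of Plin2, Lipe, Mgll, Cideb and Hilpda. A match describes the letters only.

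The libraries held 30798377 to 34794617 counts. Cd5l had 45 and 9 counts in the 5xFAD libraries and 6438 to 10680 counts in the Cd5l-transgenic ones, in the direction of the labels. Summed microglial markers ran from 25898 to 29374 CPM (counts scaled to library size with TMM factors) with no marker of the list at 0. Other cell types set 2 libraries apart: 10 choroid plexus and ependymal markers summed to 2854 CPM in 5xFAD replicate 3 against 270.4 to 549.4 CPM elsewhere, and 10 oligodendrocyte markers to 4300 CPM in Cd5l-transgenic replicate 2 against 342.9 to 1086 CPM elsewhere. Between the groups, 7 of 10 erythroid and 6 of 10 endothelial markers were higher in all 3 transgenic libraries than in both 5xFAD libraries, where 7.2% of all tested genes were, although the erythroid sum was highest in 5xFAD replicate 1 (699 CPM). Adipocyte markers, which could carry droplet genes, summed to 2.62 CPM in 5xFAD replicate 3 and to 0.102 to 0.501 CPM elsewhere. Of the 10 listed, 4 (Adipoq, Lep, Cfd and Plin1) had no counts in any library. The part of such cells in the member values was not tested. In bulk RNA of this kind fewer cells of a type and less RNA per cell cannot be told apart.

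Storage and lipolysis transcripts overlapped between the genotypes in 8 of 10 cases, Cidea was nearly absent from the Cd5l-transgenic libraries, and Dgat2 was high in 1 5xFAD library. In the edgeR quasi-likelihood test across all genes 0 of the 10 members passed an adjusted p of 0.05 in either direction, where the background over all tested genes was 0% called. In the DESeq2 Wald test 0 of the 8 members with an adjusted p passed, against a background of 0.0752% of the 14631 genes that had one; Cidea and Cideb had none. At an unadjusted edgeR p under 0.05 there was 1 member, Cidea, in the lower direction, against a background of 1.5% of tested genes there and of 1.14% in the higher direction, which held 0 members. Cidea passed the low-count filter only through the 5xFAD libraries, where it is high, so its p and its direction are a description and no support for a decrease. The fitted log2 fold changes (Cd5l-transgenic minus 5xFAD) had a median of 0.038 over the 10 members and -0.027 over all tested genes. Above 0 were 6 of 10 members, beside 42.7% of all tested genes. In size regardless of sign the median was 0.12 over the members and 0.13 over all tested genes. Pnpla2 was higher and Cidea lower in every Cd5l-transgenic library than in either 5xFAD library, where the background is 7.2% of tested genes in the higher and 8.68% in the lower direction. Since Cd5l itself had an adjusted p of 0.448 in the same edgeR test, a member that missed the threshold is not shown to be unaltered.

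**Figure D1:**
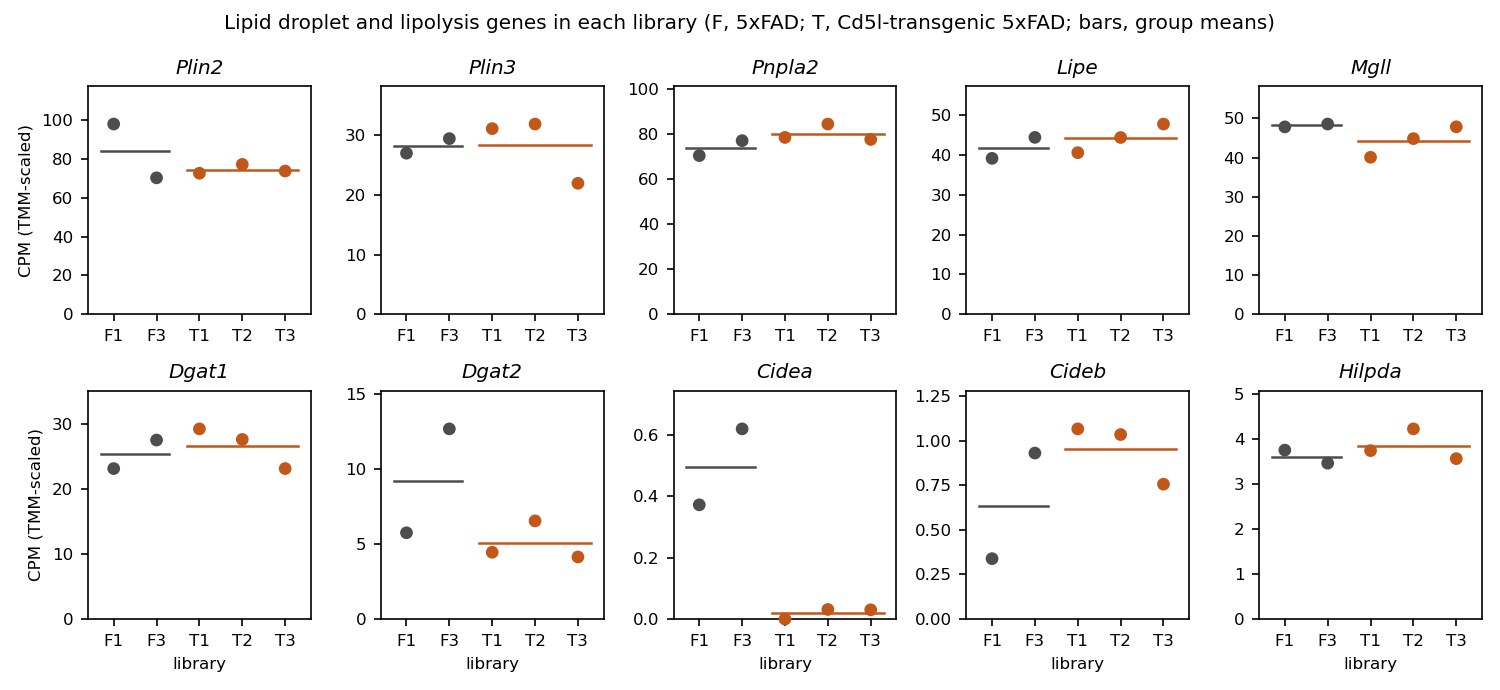
Each panel plots the TMM-scaled CPM of 1 member (y axis, from 0, with its own scale) in the 5 libraries, 5xFAD replicates 1 and 3 (F1, F3, grey) and Cd5l-transgenic replicates 1 to 3 (T1 to T3, orange), with horizontal bars at the group means. Cidea is near 0 in all 3 Cd5l-transgenic libraries, Dgat2 is highest in F3 at 12.7 CPM, Cideb is lowest in F1 at 0.339 CPM.

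Compared per base of gene length, as TPM (counts divided by the listed gene length, then scaled to the same total in each library), the first lipase and the main coat protein led the set. Pnpla2 averaged 86.3 TPM over the 5 libraries (range 73.6 to 94.3) and Plin2 74.6 (69.0 to 88.1), and their ranges overlapped. Mgll (30.3), Dgat1 (28.7), Plin3 (25.0) and Lipe (24.7) formed a middle tier in which each neighbour in the order overlapped the next, and which lay apart from Plin2 above and from Hilpda below. Hilpda followed at 11.4 (10.8 to 12.95) and overlapped Dgat2 at 7.35 (4.61 to 14.2). The CIDE genes came last, with Cideb at 1.88 (0.719 to 2.41) and Cidea at 0.632 (0 to 1.92). All 10 together summed to 277 and 303 TPM in 5xFAD replicates 1 and 3 and to 286, 305 and 284 TPM in Cd5l-transgenic replicates 1, 2 and 3, so the groups overlapped in total as well.

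Among the coat proteins, Plin2 and Plin3 each had 1 library off the rest and no difference between groups that passed the test. Plin2 (ENSMUSG00000028494, chromosome 4, 86566623 to 86588297, GRCm39) is the perilipin found on droplets of most cells outside fat and is stabilised by lipid. It stood at 98.0 and 70.3 CPM for 5xFAD mice 1 and 3, against 72.7, 77.2 and 73.8 CPM in Cd5l-transgenic replicates 1, 2 and 3. The high library was 5xFAD replicate 1, while 5xFAD replicate 3 was the lowest of all and the transgenic libraries lay close together between them. The means were 84.2 ± 19.6 CPM (SD, n = 2) and 74.6 ± 2.38 CPM (SD, n = 3), for a log2 difference of -0.17 (SE 0.14, edgeR adjusted p = 0.995). Its sign rested on that library: the log2 fold change was 0.086 once 5xFAD replicate 1 was left out and -0.40 once 5xFAD replicate 3 was.

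Plin3 (ENSMUSG00000024197, chromosome 17, 56584476 to 56599873), a perilipin that moves from the cytosol onto nascent droplets, stood at 27.0 and 29.4 CPM for 5xFAD mice, against 31.1, 31.8 and 21.9 CPM for the Cd5l-transgenic mice. Here the transgenic libraries held both the highest values and, in replicate 3, the lowest, so they enclosed the 5xFAD range. The log2 fold change was 0.0035 with a 95% interval from -0.43 to 0.44. Within a library, free of scaling between libraries, Plin2 exceeded Plin3 per length 3.92-fold and 2.58-fold in 5xFAD and 2.52-fold, 2.62-fold and 3.63-fold with the transgene. These ratios overlapped (two-sided exact permutation p = 0.6, adjusted 0.75, where 0.2 is the smallest that 2 against 3 libraries allow).

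The lipases, in the order in which they act, were among the steadiest members, with coefficients of variation of 6.42%, 7.92% and 7.69% over the 5 libraries. Pnpla2 (ENSMUSG00000025509, chromosome 7, 141035111 to 141040656) encodes ATGL, which takes the initial fatty acid off triglyceride and sets the pace of lipolysis. It stood at 70.4 and 77.0 CPM for 5xFAD mice, against 78.4, 84.4 and 77.5 CPM in Cd5l-transgenic replicates 1, 2 and 3. All 3 transgenic libraries lay above both 5xFAD libraries, with 77.0 and 77.5 CPM as the nearest values. The means were 73.7 ± 4.68 CPM (SD, n = 2) and 80.1 ± 3.71 CPM (SD, n = 3), a fitted 1.09-fold. On the log2 scale the difference was 0.12 (SE 0.08, 95% interval -0.079 to 0.32, edgeR adjusted p = 0.995), and it kept its sign without each library, from 0.059 without 5xFAD replicate 1 to 0.19 without 5xFAD replicate 3. The means lay further apart than either SD, yet the interval of the difference includes 0.

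Lipe (ENSMUSG00000003123, chromosome 7, 25078952 to 25098135), hormone-sensitive lipase, which acts chiefly on diglyceride, stood at 39.1 and 44.4 CPM for 5xFAD mice, against 40.5, 44.3 and 47.7 CPM for the Cd5l-transgenic mice. Its groups overlapped, with a log2 fold change of 0.082 (95% interval -0.17 to 0.34). Lipe lies wholly within 4732471J01Rik on the opposite strand, which had 117 to 200 counts against 1155 to 1578 for Lipe, and whether the counting used strand is not stated in the labels. Mgll (ENSMUSG00000033174, chromosome 6, 88701394 to 88805342), monoglyceride lipase, completes lipolysis and in brain also degrades the endocannabinoid 2-arachidonoylglycerol. It stood at 47.8 and 48.6 CPM for 5xFAD mice, against 40.1, 44.8 and 47.9 CPM in Cd5l-transgenic replicates 1, 2 and 3. Replicates 1 and 2 were below both 5xFAD libraries and replicate 3 reached their range, for a log2 fold change of -0.12 (SE 0.10, edgeR adjusted p = 0.995).

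As the lipases at either end of the sequence leaned in opposite directions, their ratio within each library was taken per length. Pnpla2 exceeded Mgll 2.47-fold and 2.66-fold in 5xFAD replicates 1 and 3 and 3.29-fold, 3.16-fold and 2.72-fold in Cd5l-transgenic replicates 1, 2 and 3. Each of the 3 transgenic ratios exceeded both 5xFAD ratios (two-sided exact permutation p = 0.2, the smallest possible here, or 0.333 after Benjamini-Hochberg adjustment over the 5 ratios computed, whose gene pairs were picked with values known). Pnpla2 over Lipe overlapped, at 3.51 and 3.38 against 3.77, 3.71 and 3.17. Summed per length, the lipases stood at 136 ± 15.9 TPM (SD, n = 2) in 5xFAD and 145 ± 6.76 TPM (SD, n = 3) with the transgene, a difference within the spread of the 5xFAD libraries.

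**Figure D2:**
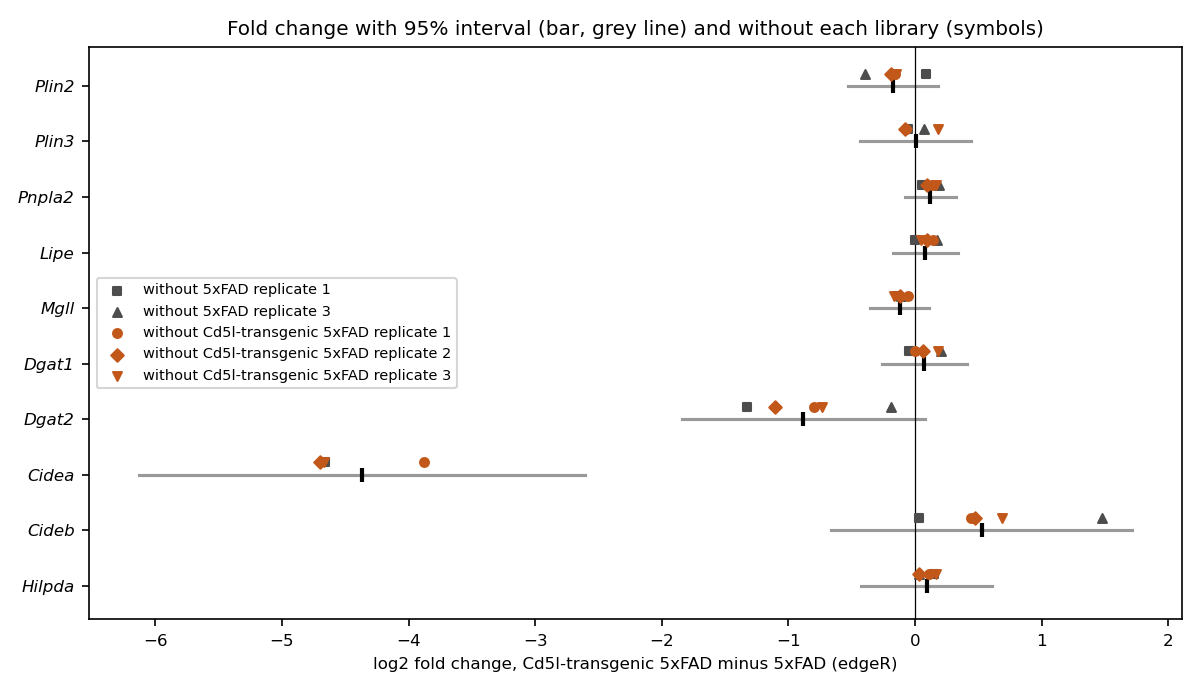
For each member (rows) the black bar is the fitted log2 fold change (x axis, Cd5l-transgenic minus 5xFAD), the grey line its 95% interval, and the symbols the value refitted without 1 library (grey, a 5xFAD library left out; orange, a transgenic one). Cidea lies near -4.37 with an interval below 0 and has no value without 5xFAD replicate 3. It passed the low-count filter only through the 5xFAD libraries, so its interval lends no support to a decrease. The symbols of Dgat2 run from -1.33 to -0.19, those of Cideb from 0.030 to 1.47 and those of Plin2 from -0.40 to 0.086.

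Of the acyltransferases of the last step of triglyceride synthesis, Dgat1 overlapped throughout and Dgat2 had 1 high library. Dgat1 (ENSMUSG00000022555, chromosome 15, 76386215 to 76396153), an enzyme of the endoplasmic reticulum that esterifies fatty acids from outside and from lipolysis, stood at 23.1 and 27.5 CPM for 5xFAD mice, against 29.2, 27.6 and 23.1 CPM for the Cd5l-transgenic mice. The groups covered almost the same range, with a log2 fold change of 0.072 (95% interval -0.26 to 0.41).

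Dgat2 (ENSMUSG00000030747, chromosome 7, 98802865 to 98831926), which also acts at the droplet surface and mainly uses newly made fatty acids, varied more than any other member with more than 1 CPM. It stood at 5.76 and 12.7 CPM for 5xFAD mice 1 and 3, against 4.46, 6.55 and 4.14 CPM in Cd5l-transgenic replicates 1, 2 and 3. 5xFAD replicate 3 was the single high library, and 5xFAD replicate 1 lay inside the transgenic range. The log2 fold change was -0.88 (SE 0.39, 95% interval -1.84 to 0.076, edgeR adjusted p = 0.995), or -0.19 when 5xFAD replicate 3 was left out. That library was also the one with 2854 CPM of choroid plexus and ependymal markers, all 10 of which were highest there, and their part in the Dgat2 value was not tested. With 5xFAD replicate 1 left out, the log2 fold change of Dgat2 was -1.33, with the high library, 5xFAD replicate 3, as the only 5xFAD library left. Per length Dgat1 exceeded Dgat2 in every library, 4.05-fold and 2.19-fold in 5xFAD and 6.62-fold, 4.25-fold and 5.63-fold with the transgene, with 4.05 and 4.25 as the nearest values (two-sided exact permutation p = 0.2, adjusted 0.333).

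The CIDE proteins join droplets and pass lipid from smaller to larger ones. Cidea (ENSMUSG00000024526) is best known from brown fat and was the member with the lowest level. Its counts were 11 and 22 in 5xFAD replicates 1 and 3 and 0, 1 and 1 in Cd5l-transgenic replicates 1, 2 and 3. Both 5xFAD libraries were above all transgenic ones, and the latter all lay under the limit of 3 counts, about 0.0907 to 0.0969 CPM in those libraries. In CPM the values were 0.372 and 0.620 against 0, 0.0313 and 0.0302. Pooled, 33 counts stood against 2, a 24.3-fold ratio after scaling with an exact 95% interval of 6.23 to 209 that covers counting error only and not the spread between mice. The fitted log2 fold change of -4.37 (SE 0.76) depends on the small count that edgeR adds. As the filter was passed through the 5xFAD counts alone, the pooled ratio and its interval lend no support to a decrease. Nor does the unadjusted edgeR p of 4.53e-04, and the adjusted p was 0.995. Without 5xFAD replicate 1, which leaves 5xFAD replicate 3 as the only 5xFAD library, the log2 fold change was -4.66. Without 5xFAD replicate 3, alone or together with Cd5l-transgenic replicate 2, Cidea was removed by the filter. The endothelial and mural marker sums were lower in both 5xFAD libraries than in all transgenic ones, opposite to Cidea. Cidea was highest in 5xFAD replicate 3, where choroid plexus and ependymal markers summed to 2854 CPM and adipocyte markers to 2.62 CPM. In 5xFAD replicate 1 these sums were 453 and 0.102 CPM. The part of other cell types in the Cidea counts was not tested.

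Cideb (ENSMUSG00000022219, chromosome 14, 55991507 to 55995915), a CIDE protein known from liver droplets and lipoprotein loading, did not follow Cidea. Its counts were 10 and 33 in 5xFAD replicates 1 and 3 and 33, 33 and 25 in Cd5l-transgenic replicates 1, 2 and 3. Only 5xFAD replicate 1 was low, at 0.339 CPM, the remaining 4 lying at 0.756 to 1.07 CPM. The log2 fold change was 0.53 (SE 0.49, edgeR adjusted p = 0.995), with 0.030 when 5xFAD replicate 1 was left out and 1.47 when 5xFAD replicate 3 was. Cideb overlaps Nop9 on the opposite strand over 1451 bases, and Nop9 had 605 to 815 counts. With strand unknown, reads within the shared stretch cannot be told apart, and how many of the counts lie there is not known. Per length Cidea stood at 1.47 and 0.890 times Cideb in 5xFAD and at 0 to 0.0534 times Cideb with the transgene (two-sided exact permutation p = 0.2, adjusted 0.333). As Cidea passed the filter through the 5xFAD counts alone and the pair was picked with values known, this p lends no support to a difference.

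Hilpda (ENSMUSG00000043421, chromosome 6, 29272487 to 29275445) encodes a small droplet protein that inhibits ATGL and is switched on by low oxygen and by fatty acids. It had 111 and 123 counts in 5xFAD and 116, 135 and 118 counts with the transgene, or 3.76 and 3.47 CPM against 3.75, 4.23 and 3.57 CPM. The groups overlapped, and the coefficient of variation over the 5 libraries, 7.81%, was below the 9.11% that counting alone gives at this depth. The log2 fold change was 0.093, with a 95% interval from -0.42 to 0.61. Over the other members the coefficient of variation ran from 6.42% for Pnpla2 through 14.3% for Plin2 to 51.7% for Dgat2, and reached 131% for Cidea, where counting alone gives 37.8%.

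**Figure D3:**
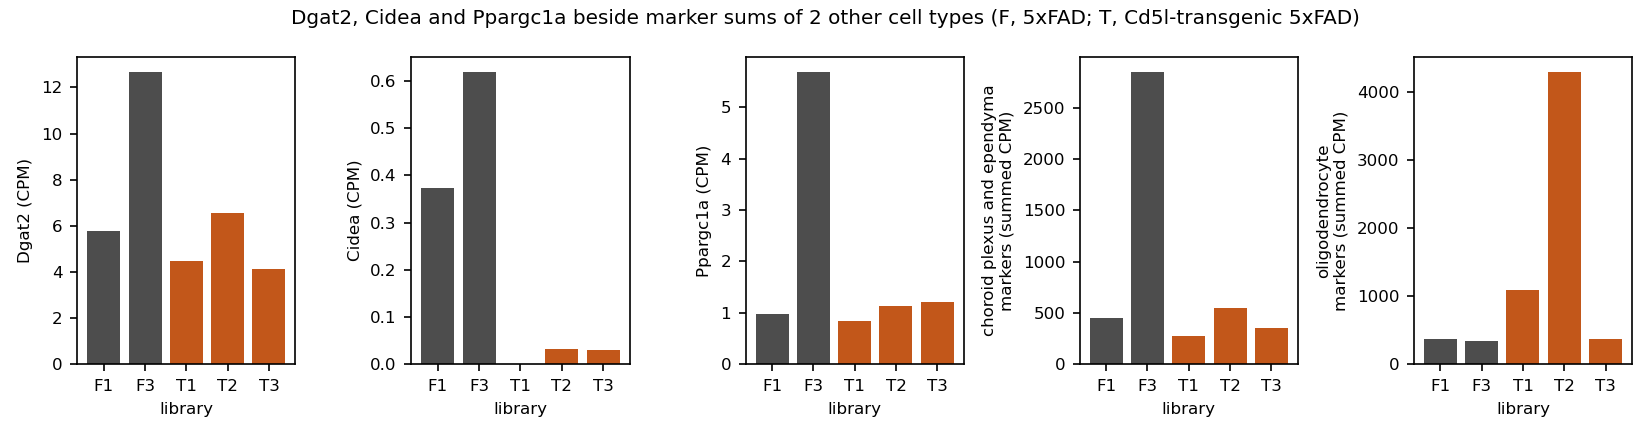
Bars give the TMM-scaled CPM of Dgat2, Cidea and Ppargc1a and the summed CPM of 10 choroid plexus and ependymal and 10 oligodendrocyte markers (y axes, from 0) in 5xFAD replicates 1 and 3 (F1, F3, grey) and Cd5l-transgenic replicates 1 to 3 (T1 to T3, orange). Dgat2, Ppargc1a and the choroid plexus and ependymal markers share their peak in F3, Cidea is also well above 0 in F1, and the oligodendrocyte markers peak in T2.

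The wider pathway was read through 7 lists of other genes, 94 in all, of which 88 were tested. None of the 88 passed in edgeR in either direction, none had an unadjusted p under 0.05 (background 2.63% of tested genes), and none of the 78 with an adjusted p passed in DESeq2. Of the 88 there were 35 above and 53 below 0, with a median log2 fold change of -0.039, beside the -0.027 of all tested genes, of which 42.7% were above 0. Groups did not overlap for 2 of the 88 in the higher and 8 in the lower direction, beside the 7.2% and 8.68% given above.

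Of 13 genes for droplet coats and assembly, 9 were tested, 5 above and 4 below 0, with a median of 0.026. Plin4 (1.69 and 3.07 CPM in 5xFAD, 3.59, 7.52 and 2.69 CPM for the Cd5l-transgenic mice) had a log2 fold change of 0.92, or 0.38 without Cd5l-transgenic replicate 2, the library rich in oligodendrocyte and endothelial markers. Fitm2, which helps droplets bud, stood at -0.29 (0.015 without 5xFAD replicate 3), and the droplet hydrolase gene Ldah at 0.054. Plin5, the perilipin of oxidative tissue, named here after its values were seen, was at 0.305 and 1.83 CPM for 5xFAD mice, against 0.323, 0.501 and 0.151 CPM for the Cd5l-transgenic mice, high in 5xFAD replicate 3 like Dgat2. Of the fat-cell genes, Plin1 had no counts in any library and Cidec had 0 to 3.

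The enzymes that supply glycerolipid and sterol ester, 17 tested of 19, had a median of -0.020 with 8 above and 9 below 0. Lpin1, a phosphatidate phosphatase that makes the diglyceride used by DGAT enzymes, was below both 5xFAD libraries in all 3 transgenic ones, as were 8.68% of all tested genes. It stood at 90.2 and 91.1 CPM against 83.6, 78.8 and 82.0 CPM. Its log2 fold change was -0.15 (SE 0.07, edgeR adjusted p = 0.995). Acsl1, which activates fatty acids, stood at 0.12 and Agpat2, an acyltransferase earlier in the pathway, at -0.11.

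Partners of the lipases and other lipid hydrolases, 14 of 14 tested, had 10 members below 0 and a median of -0.11. Abhd5, the activator of ATGL, overlapped between groups at 24.8 and 22.8 CPM against 23.6, 25.4 and 20.4 CPM, and the ATGL inhibitor G0s2 was low, at 1.03 to 2.32 CPM over all libraries. Both were picked after their values were seen, as partners of Pnpla2. Nceh1, a sterol ester hydrolase of macrophages, stood at 198 and 148 CPM for 5xFAD mice, against 153, 151 and 138 CPM for the Cd5l-transgenic mice, a log2 fold change of -0.23 that was -0.0055 without 5xFAD replicate 1. The diglyceride lipases Daglb and Dagla, which feed the substrate of Mgll, stood at -0.11 and 0.082.

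**Figure D4:**
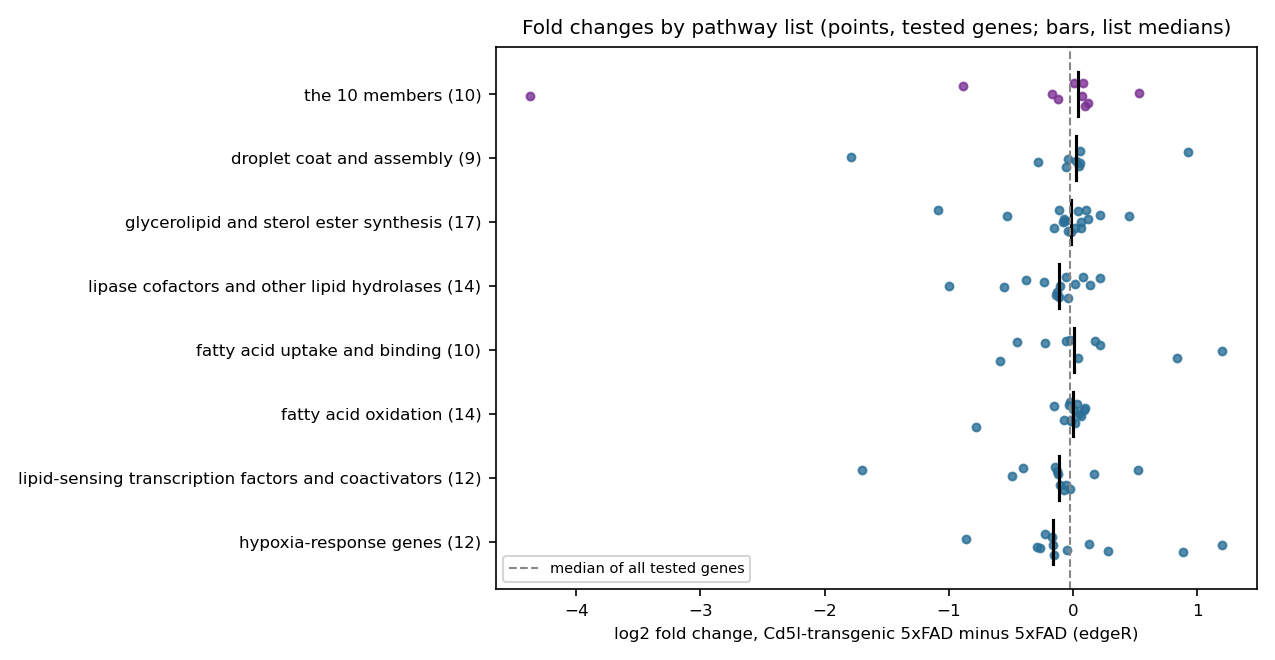
Points are the fitted log2 fold changes (x axis, Cd5l-transgenic minus 5xFAD) of the tested genes in each list (rows, number tested in brackets), black bars the list medians, and the dashed line the median of all tested genes. All list medians lie between -0.16 and 0.038, and the points far from 0 include Cidea at -4.37 and Plin5 at -1.79.

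Fatty acid uptake and binding genes (10 of 10 tested) were 5 above and 5 below 0, with a median of 0.0100. The binding proteins Fabp5 and Fabp3 had log2 fold changes of -0.59 and -0.45, with 5xFAD replicate 1 high for both: Fabp5 was at 216 CPM there, 107 CPM in 5xFAD replicate 3 and 107, 119 and 95.5 CPM for the Cd5l-transgenic mice. Leaving that library out gave -5.5e-04 for Fabp5 and -0.028 for Fabp3. The transporter Slc27a1 stood at 48.4 and 53.4 CPM for 5xFAD mice and lower in each transgenic library, at 44.6, 47.6 and 38.3 CPM (log2 fold change -0.23, SE 0.11, edgeR adjusted p = 0.995). Of all tested genes 8.68% were lower in this way.

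Fatty acid oxidation, the fate of fatty acids set free by lipolysis in mitochondria, had 14 of 14 genes tested, 7 above and 7 below 0, and a median of -0.0046. Hadhb, a subunit of the trifunctional protein, was at -0.16, while the carnitine carriers and transferases Slc25a20 and Cpt2 were at 0.093 and 0.090. The 12 lipid-sensing factors and coactivators were 2 above and 10 below 0, with a median of -0.11. Ppargc1a, a coactivator of oxidative metabolism, was at 5.69 CPM in 5xFAD replicate 3 and between 0.840 and 1.21 CPM in the other 4 libraries, so that its log2 fold change of -1.70 was 0.11 without that library. The sterol receptor Nr1h3 stood at 0.52 and Rxra, partner of the PPAR and LXR receptors, at -0.14.

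The 12 hypoxia-response genes, set beside Hilpda, were 4 above and 8 below 0, with a median of -0.16. Egln3, a prolyl hydroxylase that hypoxia induces, stood at 88.3 and 88.8 CPM for 5xFAD mice, against 83.3, 75.4 and 58.9 CPM for the Cd5l-transgenic mice, and Ero1a, an oxidase of the endoplasmic reticulum, at 49.3 and 49.2 CPM against 44.4, 44.5 and 43.7 CPM. Both were lower in 3 of 3 transgenic libraries, as were 8.68% of all tested genes (log2 fold changes -0.29 and -0.16, edgeR adjusted p = 0.995 each). Genes of this list were named by smallest unadjusted p, which favours such a pattern. Car9, a carbonic anhydrase, was at -0.86, or -0.12 without 5xFAD replicate 3. Of the 4 genes above 0, as Hilpda was at 0.093, Ndrg1 stood at 1.196, Ddit4 at 0.89, Slc2a1 at 0.28 and P4ha1 at 0.13, all named after their values were seen. Ndrg1, a stress-responsive gene that oligodendrocytes also express, was higher in all 3 transgenic libraries, as were 7.2% of all tested genes. It stood at 23.1 and 33.5 CPM for 5xFAD mice, against 41.4, 119 and 34.5 CPM for the Cd5l-transgenic mice. Its peak was in the library rich in oligodendrocyte markers, whose part was not tested.

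Fitm2, Plin5, Ppargc1a and Car9 had their highest value in 5xFAD replicate 3, the library with 2854 CPM of choroid plexus and ependymal markers, whose part in these values was not tested. In all, 18 of the 88 pathway genes (20.5%) were highest there, near the 21.3% of all tested genes.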

How the data were processed

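The authors deposited whole-number counts for Ensembl genes, 1 column per library and not normalised, on GRCm39 (mm39) according to the submitters' processing notes. The aligner, counting tool, annotation release and strandedness were not given in the sources used here. Gene lengths and coordinates are as listed in the deposited table, where their derivation is not stated. Columns were matched to libraries by name; 1 name, of Cd5l-transgenic replicate 3, has its letter pairs swapped. All per-sample columns were used.

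Genes were filtered with filterByExpr, scaled with TMM and tested with the edgeR 4.0.16 quasi-likelihood test (robust, legacy off, genotype only) under R 4.3.3, with Benjamini-Hochberg adjustment over 17724 genes and a threshold of 0.05. The SE is the absolute log2 fold change over the square root of F. Alternatives used DESeq2 1.42.0 and limma 3.58.1. A single count was worth 0.0282 to 0.0339 CPM; limits and counting intervals cover counting error only. On simulated counts for this comparison (17724 genes), the test found 52 of 100 genes set to a 2-fold change, 90 of 100 set to 8-fold, and called 26 unaltered genes. The altered genes were drawn from those with a mean above 1 CPM, which leaves out Cidea (0.21 CPM) and Cideb (0.82 CPM). The simulation held no differences in cell content between libraries, so these rates need not hold for the real counts, where Cd5l itself had an adjusted p of 0.448 in the edgeR test.

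The members and lists were chosen with earlier results of these data known. All members are named, with up to 3 genes per pathway list by smallest unadjusted p at a mean of at least 1 CPM. Of the listed symbols 1 (Ldaf1) was not matched in the table, and Spart was matched as Spg20. Of the 13 marker lists, summed CPM over the 5 libraries ran from 744.96 to 1504 for endothelium, 313 to 580.1 for mural cells, 308 to 453.1 for astrocytes, 7.28 to 22.9 for neurons, 262 to 462 for border-associated macrophages, 170 to 346.02 for monocytes, 1009 to 1143 for neutrophils, 8.46 to 12.3 for lymphocytes and 526 to 699 for erythroid cells.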

Additional observations from a re-analysis of the deposited data

How the results depend on the processing

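No member passed the threshold in the edgeR test reported or under any of the 14 alternatives, of which 5 left out 1 library each and 1, without both 5xFAD replicate 3 and Cd5l-transgenic replicate 2, was chosen after seeing the data, but not all 10 could be called in each: 8 had an adjusted p in DESeq2 (not Cidea and Cideb), 7 were tested at a filter of 5 CPM in 2 libraries, and 9 (not Cidea) without 5xFAD replicate 3 or without both libraries. Over all genes 0 were called, against 11 with DESeq2 (9 higher, 2 lower), 0 to 10 with 1 library left out (10, all lower, without 5xFAD replicate 1) and 41 without both libraries (13 higher, 28 lower), where 1 library stood for 5xFAD and is assumed to vary like the others. Of the pathway genes, Fabp5 changed its side of the threshold without both libraries (log2 fold change -1.09), in a fit with 1 5xFAD library. Of 423 single-gene values with an adjusted p, 407 kept sign and side of the threshold and 15 changed sign. With 1 library left out, log2 fold changes ran from -0.40 to 0.086 for Plin2, -0.078 to 0.18 for Plin3, -0.0041 to 0.17 for Lipe, -0.045 to 0.20 for Dgat1, -2.42 to 0.11 for Ppargc1a, -0.52 to 0.015 for Fitm2, -0.24 to 0.031 for Agpat2 and -0.040 to 0.16 for Ldah. Without both libraries the sign also turned for Plin3 (-0.018), Hilpda (-0.032), Ppargc1a (0.076) and Fitm2 (0.0076); the cause was not tested. Counts limit Cidea (0 to 22) and Cideb (10 to 33).

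Replicate numbers 1 and 3 occur in both groups, and nothing in the labels says that they pair mice. Deviations from the group means correlated at 0.129 for number 1 and -0.24 for number 3 across 17724 genes, which are not independent replicates. With the replicate block 0 genes, 0 members and 0 pathway genes were called, and Plin3 stood at -0.11.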

Other observations

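Cd36, the scavenger receptor through which adipocytes are reported to take up CD5L, varied within both groups, at 7.92 and 11.3 CPM for 5xFAD mice, against 11.4, 6.17 and 16.0 CPM in Cd5l-transgenic replicates 1, 2 and 3. Lpl, the lipoprotein lipase that frees fatty acids from lipoproteins, averaged 274 TPM per length, above every droplet gene studied here, and stood at 1073 and 747 CPM for 5xFAD mice, against 851, 797 and 826 CPM for the Cd5l-transgenic mice, so that like Plin2 it was highest in 5xFAD replicate 1 and lowest in 5xFAD replicate 3. Both genes were picked after their values were seen.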
